A study of Mus musculus with 2 samples.

Results

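A set of 9 genes of the cytotoxic granule of lymphocytes was followed in cells from pancreatic tumors of mice, in single-cell RNA sequencing of 1 library from mice given PBS and 1 library from mice given cmExoaCD11b. They were the granzymes Gzma, Gzmb, Gzmk and Gzmc, the perforin gene Prf1, the granule membrane protein gene Nkg7, the cathepsin gene Ctsw and the inhibitor genes Serpinb9 and Serpinb6b. These 9 genes were taken by symbol from the 32285 genes of the count tables, whatever their level, and all 9 were detected in both libraries. Both groups were male C57BL/6J mice, 5 to 6 weeks old when obtained, that carried tumors grown from K210 cells placed in the pancreas. K210 is a cell line from a pancreatic ductal adenocarcinoma that arose in engineered C57BL/6J mice, whose alleles included Trp53 fl/fl and Pdx1-Cre, a recombinase driven in the pancreas. PBS is the buffer control. cmExoaCD11b consists of exosomes that carry IL-12 mRNA and cGAMP and bear an antibody to CD11b, given into the peritoneum at 5 µg of cGAMP per mouse. Each library pooled the cells of 3 mice, taken 48 h after treatment. The data can show which of these genes differed in level between the PBS and cmExoaCD11b libraries, and in which cells. With 1 library per treatment, such a difference cannot be told apart from one between mice or pools.

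Cytotoxic lymphocytes kill a target cell by emptying secretory granules into the space between both cells. Perforin opens pores in the membrane of the target, and granzymes, which are serine proteases, enter through them and cleave proteins that lead to cell death. The killer cell protects itself with serpins, which bind and inactivate granzymes that leak into its own cytoplasm. NK cells and memory or effector CD8 T cells are the main carriers of such granules, while naive T cells make few of these transcripts.

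Promoter sequences are shown for 3 members, for Gzma and Gzmb because their levels stood apart between the libraries in CD8 T cells, and for Nkg7 because its level there hardly did. They were read from RefSeq promoters of GRCm38.p6, which run from 250 bases before to 50 bases after the gene start, 5′ to 3′ on the strand of the gene. Capitals mark matches to 4 motifs on either strand, AGGTGTGA for T-box factors, TGTGGT for Runx factors, the interferon-stimulated response element (ISRE), read as GAAA repeated after a gap of 2 bases, and TTCNNNGAA for STAT dimers (GAS).

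Gzma, chr13:113100932-113101231, minus strand: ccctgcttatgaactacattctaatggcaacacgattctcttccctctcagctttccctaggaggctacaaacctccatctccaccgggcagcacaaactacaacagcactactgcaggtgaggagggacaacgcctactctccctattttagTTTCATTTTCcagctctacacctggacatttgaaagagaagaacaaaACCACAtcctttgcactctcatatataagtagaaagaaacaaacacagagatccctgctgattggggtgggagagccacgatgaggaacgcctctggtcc
Gzmb, chr14:56262285-56262584, minus strand: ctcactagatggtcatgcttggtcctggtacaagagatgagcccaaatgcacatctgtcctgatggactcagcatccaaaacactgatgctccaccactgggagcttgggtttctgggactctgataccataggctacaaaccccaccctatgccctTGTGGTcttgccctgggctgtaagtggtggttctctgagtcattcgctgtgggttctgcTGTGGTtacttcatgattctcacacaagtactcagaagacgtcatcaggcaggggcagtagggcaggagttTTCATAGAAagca
Nkg7, chr7:43436888-43437187, plus strand: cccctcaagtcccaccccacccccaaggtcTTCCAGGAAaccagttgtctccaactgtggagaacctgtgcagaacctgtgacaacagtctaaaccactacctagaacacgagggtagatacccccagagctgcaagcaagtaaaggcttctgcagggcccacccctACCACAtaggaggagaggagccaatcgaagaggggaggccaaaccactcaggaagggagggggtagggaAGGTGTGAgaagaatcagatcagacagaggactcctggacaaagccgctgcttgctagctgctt

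The Gzma promoter held a Runx match at -50 and an ISRE match at -97 from the start. The Gzmb promoter held Runx matches at -93 and -34 and a GAS match at 37. The Nkg7 promoter held the T-box match at -14, with a Runx match at -83 and a GAS match at -220. Of the other members with a promoter in the same table, Gzmc held Runx matches at -174 and -108, Prf1 a Runx match at -130, and Serpinb9 a Runx match at 10 and an ISRE match at -46, whereas Gzmk and Serpinb6b held none of the 4 motifs. Of all 32851 promoters in the table, 16.76% held the Runx letters, 8.298% the GAS letters, 3.443% the ISRE letters and 1.275% the T-box letters. A match describes letters in these windows and is not evidence of a bound site.

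Of the barcodes, 6835 cells of the PBS library and 7073 of the cmExoaCD11b library were kept, with medians of 3470 and 4103 unique molecular identifiers (UMIs) per cell. Cells were assigned to classes by UMIs of marker genes that include no member, such as Cd3d, Cd3e and Cd3g with Cd8a or Cd8b1 for CD8 T cells. The CD8 T gate held 149 PBS and 388 cmExoaCD11b cells, the CD4 T gate 138 and 244, the gate of T cells without a Cd4 or Cd8 UMI 101 and 252, and the NK gate 28 and 104. T cell genes that the gates did not use were detected in 42.28% to 81.7% of CD8 T cells, and the T cell receptor gene Trac in 80.54% of the PBS ones. Neutrophils made up 54.72% and 56.31% of the kept cells, and 31.24% and 22.65% of cells fell in no gate. The libraries shared 16 barcodes, of which 2 PBS and 3 cmExoaCD11b cells lay in T or NK gates. With 1 library per treatment no test was possible, so levels are given as CPM, the UMIs of a gene per 1000000 UMIs of its class, with exact Poisson 95% intervals. Differences are given as the cmExoaCD11b level divided by the PBS level, with a 95% interval from the exact conditional method in parentheses. Shares of cells have exact Clopper-Pearson 95% intervals. Each interval covers counting error only, since nothing here measures the spread between mice. In such sums, fewer cells with a transcript and less of it per cell cannot be told apart, so shares are given beside levels. A Trac UMI was found in 10.71% and 2.885% of NK cells and a Trbc1 UMI in 35.71% and 51.92%. For the gamma-delta T cell receptor gene Trdc these shares were 32.14% and 5.769%. The make-up of the NK gate may thus differ between the libraries, and its part in the NK ratios was not tested. Transcripts of 9 neutrophil genes made up 1824 and 2732 CPM of the CD8 T gate, and their part in the results was not tested.

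The members were mainly transcripts of T and NK cells, apart from Nkg7 in neutrophils, mast cells and basophils and the serpins in epithelial and dendritic cells. All 9 stood below 10 CPM in B cells of both libraries, and all but Nkg7 below 3 CPM in neutrophils. Gzma, which encodes a tryptase, was highest in NK cells at 7910 CPM in PBS and 6660 CPM in cmExoaCD11b, followed by CD8 T cells at 628.2 and 2482 CPM. T cells without Cd4 or Cd8 came next at 146.4 and 720.9 CPM, and CD4 T cells were lowest of the 4 T and NK gates at 11.23 and 157 CPM. Gzma intervals of these 4 classes did not overlap within either library.

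Gzmb, the protease that cleaves after aspartate and activates caspases, had 639.5 CPM in NK cells and 696.1 CPM in CD8 T cells of the PBS library, levels whose intervals overlapped. In the cmExoaCD11b library CD8 T cells led with 1509 CPM against 1150 CPM in NK cells. Gzmk, a tryptase of memory CD8 T cells, peaked in CD8 T cells at 220.9 and 262.2 CPM and was near absent from NK cells, with 3 UMIs in PBS and 2 in cmExoaCD11b. Prf1 had the opposite order, at 706.8 and 624.8 CPM in NK cells against 209.7 and 122 CPM in CD8 T cells. NK cells also led for Nkg7, at 2109 and 2220 CPM, for Serpinb9, at 415.1 and 549.7 CPM, and for Serpinb6b, at 370.2 and 437.1 CPM. Ctsw, which encodes a papain-like protease, differed least among the T and NK gates, from 332.1 to 617.1 CPM in PBS and from 248.3 to 345.9 CPM in cmExoaCD11b.

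**Figure D1:**
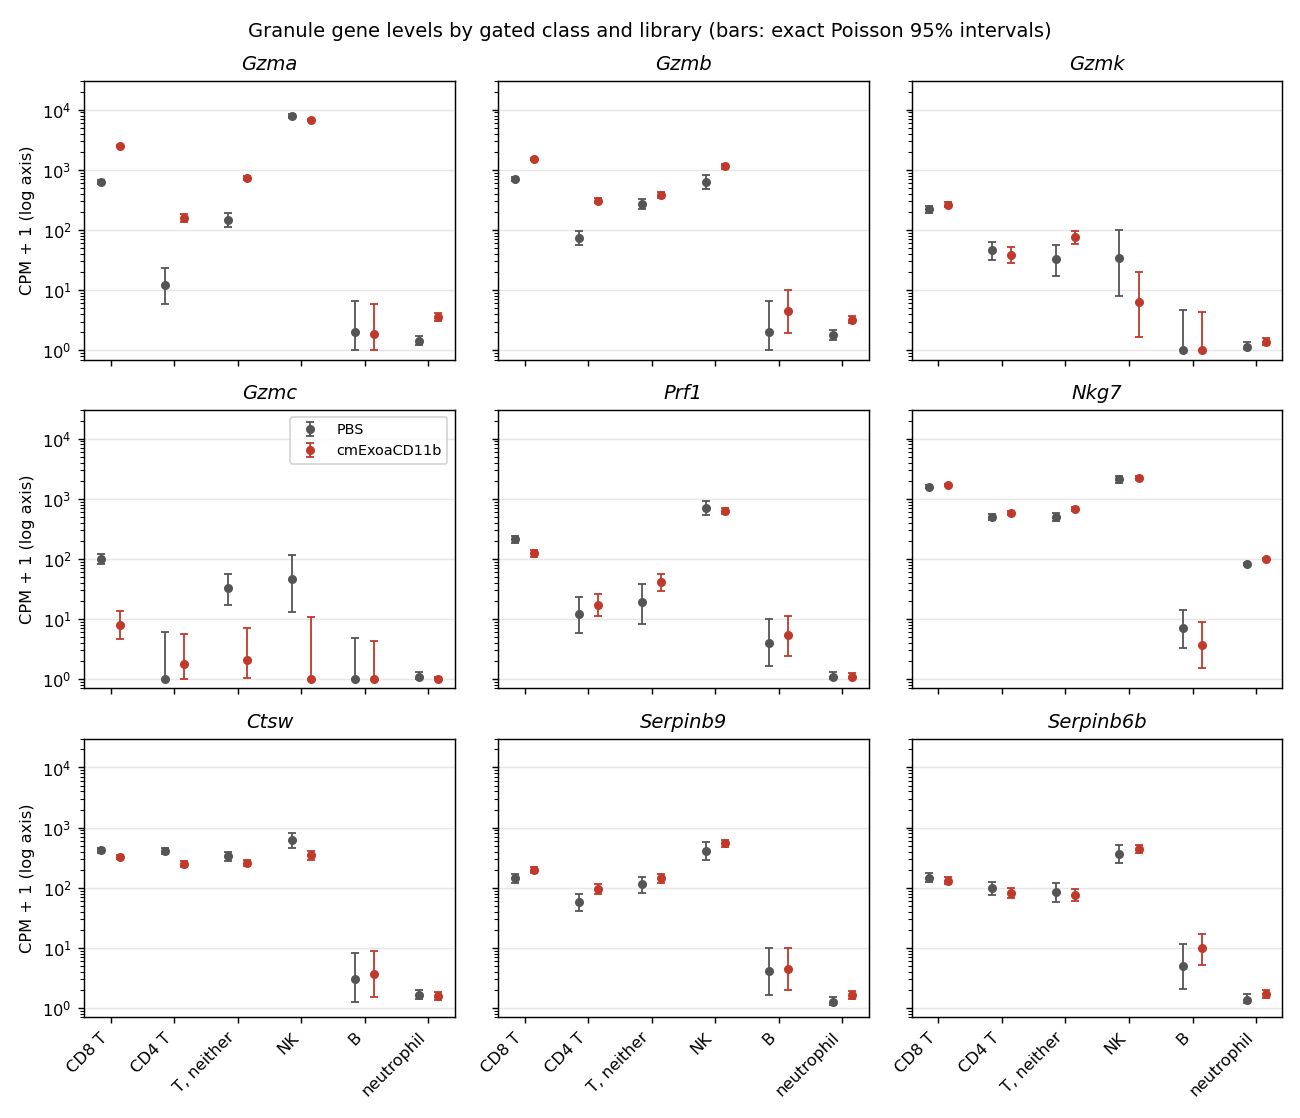
Level of each of the 9 granule genes in 6 gated classes, in CPM plus 1 on a log axis, with grey points for PBS, red points for cmExoaCD11b and bars for exact Poisson 95% intervals. Gzma in CD8 T cells sits at 628.2 CPM in PBS and 2482 CPM in cmExoaCD11b, while in NK cells it sits at 7910 and 6660 CPM. Nkg7 is the member with a raised level in neutrophils.

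RNA outside cells gave a measure of the level a class can show without expressing a gene. Empty droplets held 31.7 CPM of Gzma in PBS and 125.5 CPM in cmExoaCD11b, and 33.79 and 91.88 CPM of Gzmb. Free RNA made up 3.027% and 2.863% of the UMIs of lymphocytes by their neutrophil transcripts, which corresponds to 0.9596 and 3.593 CPM of Gzma in a cell that does not make it. Gzma in neutrophils, at 0.4168 and 2.551 CPM, lay below these levels, at a ratio of 6.12. The free RNA share was measured in lymphocytes, and the source of the Gzma UMIs in neutrophils was not tested.

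In CD8 T cells, Gzma and Gzmb were the members past 2-fold higher in cmExoaCD11b, against 4.51% of the 6409 genes with at least 50 UMIs over both libraries. Gzma counted 620 UMIs in 149 PBS cells and 4211 UMIs in 388 cmExoaCD11b cells, a ratio of 3.95 (3.63 to 4.305). More cells carried it, and the typical positive cell held more of it. A Gzma UMI was found in 21.48% of PBS cells (15.18 to 28.94) and 51.03% of cmExoaCD11b cells, and positive cells held a median of 6 and 15 UMIs, or a mean of 19.38 and 21.27. At least 50% of the Gzma UMIs lay in 4 PBS cells, against 34 cells in cmExoaCD11b. Gzmb counted 687 and 2561 UMIs, a ratio of 2.168 (1.992 to 2.362), and was found in 49.66% and 60.82% of cells. After each cell was thinned to 1000 UMIs, since the CD8 T cells of PBS were deeper with a median of 4965 against 3778 UMIs, Gzma was found in 13.61% (8.513 to 20.23) and 43.01% (37.96 to 48.16), and Gzmb in 28.57% (21.43 to 36.6) and 42.74% (37.71 to 47.9). Intervals of the libraries did not overlap for either gene. In neutrophils, which should lack both, thinned shares were 0.05478% and 0.4125% for Gzma and 0.2191% and 0.3609% for Gzmb, at medians of 3774 and 5213 UMIs before thinning.

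A single PBS cell decided several of the CD8 T ratios. It held 42942 UMIs, the third most of the 149 PBS cells and 4.351% of all UMIs of the gate, and 92 UMIs of Cd3 genes, 59 of Cd8a and Cd8b1, 39 of checkpoint receptors and 8 of cycling genes, with 0 of Cd4, of B cell and of macrophage markers. It also held 6 UMIs of NK markers and 21 of S100a8 and S100a9. It was not among the doublets removed. It carried 314 of the 687 Gzmb UMIs, 92 of the 97 Gzmc UMIs, 71 of the 207 Prf1 UMIs and 42 of the 145 Serpinb6b UMIs of the PBS gate, and 0 UMIs of Gzma. It also carried 72 of the 74 Gzmf UMIs, 33 of the 34 Gzmd UMIs and 18 of the 19 Gzme UMIs. Gzmc to Gzmg are close copies of each other in a gene cluster, so reads can be shared or lost among them. Without this cell, chosen after its values were seen, the Gzmb ratio was 3.82 (3.425 to 4.269) and that of Gzma 3.778 (3.472 to 4.117). Over all alternatives of processing the Gzmb ratio ranged from 1.354, below the 2-fold call, to 3.82. For Gzma the range was 2.967 to 4.537.

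**Figure D2:**
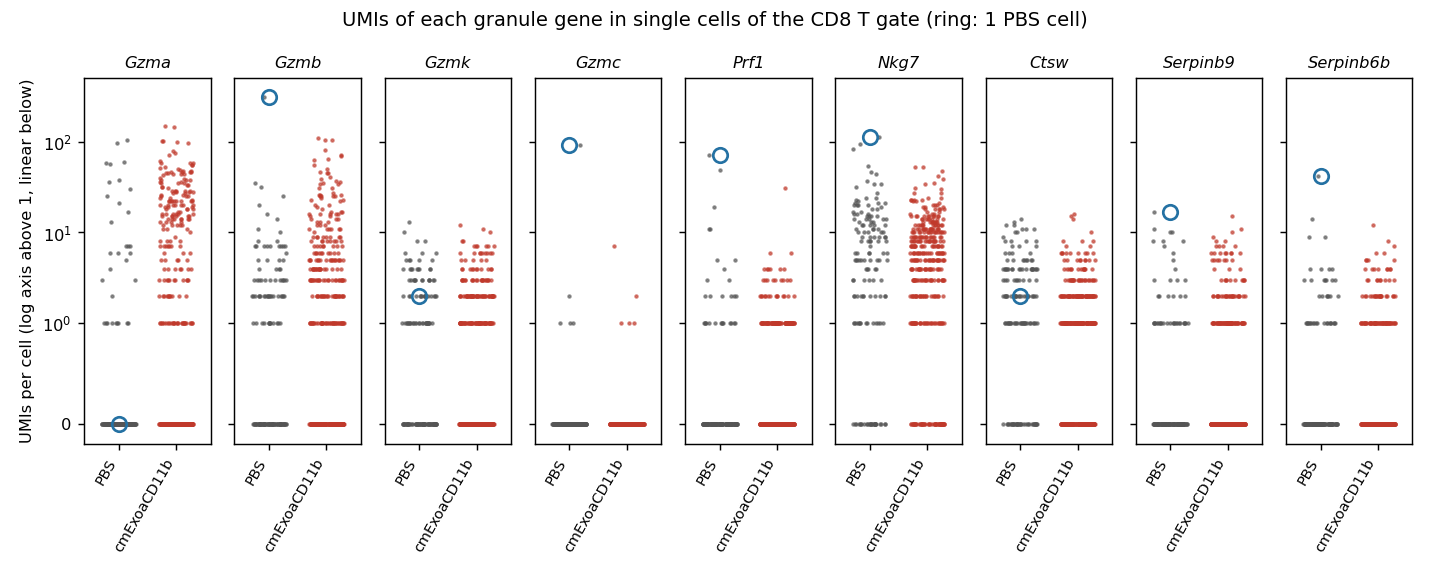
UMIs of each granule gene in every cell of the CD8 T gate, with 149 grey points for PBS and 388 red points for cmExoaCD11b. The vertical axis is logarithmic above 1 UMI and linear below, and points are spread sideways at random. The ring marks the same PBS cell in all panels, with 314 UMIs of Gzmb, 92 of Gzmc, 71 of Prf1 and 0 of Gzma.

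Gzmc, a granzyme of strongly stimulated T cells, was the member past 2-fold lower in CD8 T cells, against 3.31% of genes. It counted 97 UMIs in PBS and 12 in cmExoaCD11b, 98.28 and 7.072 CPM, a ratio of 0.07195 (0.03594 to 0.1315). In each library 5 cells carried it. Without the PBS cell described above, 5 UMIs were left against 12, at a ratio of 1.335 (0.4378 to 4.838), so the lower level rested on that cell.

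Prf1 counted 207 UMIs in each library, 209.7 CPM in PBS and 122 CPM in cmExoaCD11b, a ratio of 0.5816 (0.4774 to 0.7086). More cells carried it in cmExoaCD11b, 30.15% against 20.13%, although at 1000 UMIs per cell the shares were close, at 10.03% (7.193 to 13.5) and 10.2% (5.825 to 16.27). At least 50% of its PBS UMIs lay in 2 cells, against 23 cells in cmExoaCD11b. Without the PBS cell described above the ratio was 0.8467, with an interval of 0.6787 to 1.059 that includes 1. No cmExoaCD11b cell was left out there, although 1 held 31 of the 207 Prf1 UMIs, against 6 in the next. The interval thus depends on removal from PBS alone. Averaged over cells so that each counts alike the ratio was 1.181, and over the alternatives of processing it ranged from 0.5505 to 1.181. A lower Prf1 level per CD8 T cell was thus not shown. Gzmk differed little, with 218 and 445 UMIs, a ratio of 1.187 (1.007 to 1.403), and thinned shares of 19.05% and 19.79%.

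Nkg7, whose protein sits in the granule membrane and is needed for granule release, had 1587 CPM in PBS and 1666 CPM in cmExoaCD11b, a ratio of 1.05 (0.9867 to 1.118). It was the most widely detected member, in 81.21% and 85.82% of CD8 T cells. Ctsw lay below in the treated library, at 420.5 against 322.9 CPM, a ratio of 0.768 (0.6748 to 0.8746). Its share differed in the same direction at equal depth, with 36.05% (28.31 to 44.38) of PBS cells and 22.16% (18.08 to 26.69) of cmExoaCD11b cells, intervals that do not overlap. Ctsw UMIs were spread widely, with 50% of them in 25 PBS cells and 50 cmExoaCD11b cells, and no cell held over 16.

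Both inhibitors stayed within 1.5-fold over the whole CD8 T gate. Serpinb9, the inhibitor of granzyme B, counted 142 and 335 UMIs, at 143.9 and 197.4 CPM, a ratio of 1.372 (1.124 to 1.682). Without the PBS cell described above the Serpinb9 ratio was 1.491 (1.211 to 1.846). Its thinned shares, 10.2% (5.825 to 16.27) and 13.72% (10.42 to 17.6), had intervals that overlap. Serpinb6b, an inhibitor of granzyme A in mice, counted 145 and 220 UMIs, a ratio of 0.8824 (0.7123 to 1.096), which became 1.188 (0.9361 to 1.517) without the PBS cell described above. Both belong to a family of similar genes, so reads may be shared with relatives such as Serpinb9b and Serpinb6a. The median ratio of the 9 members in CD8 T cells was 1.05, against 1.057 over all genes counted. With a 1.5-fold limit in place of 2-fold, Gzma and Gzmb were higher and Gzmc and Prf1 lower, against 17.7% and 12.7% of genes.

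**Figure D3:**
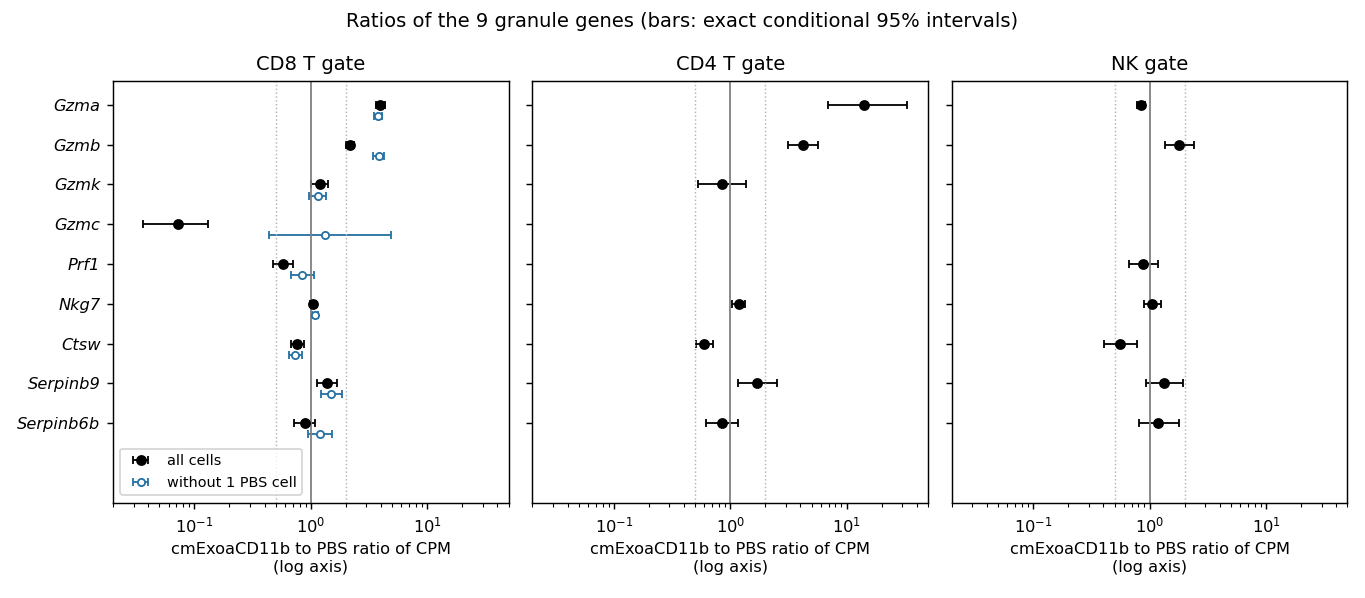
Ratio of cmExoaCD11b to PBS of each member in the CD8 T, CD4 T and NK gates on a log axis, for members with at least 50 UMIs over both libraries, with exact conditional 95% intervals, a solid line at 1 and dotted lines at 0.5 and 2. Open blue points leave out 1 PBS cell of the CD8 T gate, which moves Gzmc from 0.07195 to 1.335 and Gzmb from 2.168 to 3.82. Gzma lies above 1 in both T cell gates, although at 1.013 with at least 2 Cd4 UMIs, and at 0.8421 in NK cells.

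The CD8 T cells were then split by genes that are no members. In the 65 PBS and 128 cmExoaCD11b cells with a UMI of Pdcd1, Havcr2, Lag3 or Tigit, receptors that restrain T cells, Gzma was at 288 and 1622 CPM, a ratio of 5.633 (4.793 to 6.653). In the 84 and 260 cells without one it was at 1142 and 3103 CPM, a ratio of 2.717 (2.46 to 3.006). Gzma was higher in cmExoaCD11b in both subsets, and within each library its level was lower in the cells with a checkpoint receptor UMI. Shares of cells with Gzma were 21.54% with one and 21.43% without in PBS, and 42.19% and 55.38% in cmExoaCD11b. In the PBS gate 4 cells held at least 50% of the Gzma UMIs, so no order of the subsets is read there. Gzmb was at 424.8 and 1299 CPM without a checkpoint receptor UMI, a ratio of 3.057 (2.6 to 3.614). With one, it was at 875.7 and 1800 CPM, a ratio of 2.056 (1.855 to 2.281). Without the PBS cell described above, the PBS level was 373.9 CPM and the ratio 4.814 (4.153 to 5.605).

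Prf1 was higher in cmExoaCD11b in cells without a checkpoint receptor UMI. Cells without a checkpoint receptor UMI held 14 PBS and 100 cmExoaCD11b UMIs, 35.62 and 101.5 CPM, a ratio of 2.851 (1.622 to 5.403). Cells with one were at 325 and 150.3 CPM, a ratio of 0.4623 (0.3616 to 0.5885). Without the PBS cell described above, 122 UMIs were left in PBS, 221.5 CPM, a ratio of 0.6785 (0.5184 to 0.8869). A second PBS cell, with 54517 UMIs, held 49 of those 122, and without both cells the ratio was 1.022 (0.7517 to 1.395). For these ratios cells were left out of PBS alone and none of cmExoaCD11b. The share of cells with Prf1 was higher in cmExoaCD11b in both subsets, at 14.29% and 28.08% without a receptor UMI and 27.69% and 34.38% with one, so a lower Prf1 level was not shown. Serpinb6b had ratios of 1.715 (1.12 to 2.713) without and 0.735 (0.5592 to 0.9649) with a checkpoint receptor UMI. The latter was 1.059 (0.78 to 1.442) without the PBS cell described above. Serpinb9 had ratios of 1.662 (1.185 to 2.375) without and 1.314 (1.015 to 1.708) with a checkpoint receptor UMI. Its latter ratio was 1.472 (1.119 to 1.947) without that PBS cell. Ctsw was lower in cells without a checkpoint receptor UMI, at 445.2 and 295.5 CPM, a ratio of 0.6638 (0.5484 to 0.8053). In cells with one it was at 404.1 and 360.9 CPM, a ratio of 0.893 (0.746 to 1.069) whose interval includes 1. Without that PBS cell the latter ratio was 0.8354 (0.6976 to 1.001). A UMI of a receptor is more often found in deeper cells, and the medians were 5488 and 4560 UMIs with one against 4500 and 3452 without. The part of depth in these differences was not tested.

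Outside the 20 and 27 cycling cells, with at least 3 UMIs of Mki67, Top2a and Stmn1, Gzma had a ratio of 3.847 (3.466 to 4.28) and Gzmb 3.819 (3.34 to 4.382), whereas Prf1 had 1.054 (0.7868 to 1.426). Serpinb9 had 1.731 (1.337 to 2.266) outside the cycling cells and 0.6372 (0.3925 to 1.008) within them. The latter was 0.7521 (0.4542 to 1.22) without the PBS cell described above, and both of its intervals include 1. Ctsw in cycling cells had a ratio of 1.33 (1.008 to 1.751), or 1.203 (0.9108 to 1.586) without the PBS cell described above, and was found in 95% and 77.78% of them, so no order is read there. The cycling cells of PBS were deep, with a median of 14340 UMIs against 6527, and included the PBS cell described above.

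In CD4 T cells, which help other immune cells and seldom kill, Gzma and Gzmb were again past 2-fold higher, among 7 members with at least 50 UMIs and against 2.64% of 5490 genes. Gzmb counted 52 and 372 UMIs, at 72.98 and 305.9 CPM, a ratio of 4.191 (3.129 to 5.716). Nearly as many PBS as cmExoaCD11b cells carried it, 15.94% and 17.21%, and in cmExoaCD11b 2 cells with 118 and 100 UMIs held over 50% of the total. At 1000 UMIs per cell it was found in 6.522% (3.025 to 12.02) and 11.57% (7.828 to 16.29), intervals that overlap. Cells with a Foxp3 UMI, the factor of regulatory T cells, numbered 0 in PBS and 10 in cmExoaCD11b, and 2 of those 10 held 101 of the Gzmb UMIs. Without Foxp3 cells the ratio was 3.157 (2.339 to 4.334).

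Gzma in CD4 T cells counted 8 UMIs in 3 PBS cells and 191 UMIs in 17 cmExoaCD11b cells, a ratio of 13.99 (6.957 to 32.87), with 106 of the 191 UMIs in 1 cell. Without the cell with the most Gzma UMIs in each library the ratio was 24.81. It rested on cells with a single Cd4 UMI. When at least 2 Cd4 UMIs were required, 7 UMIs were left in 67 PBS cells and 13 in 122 cmExoaCD11b cells, 18.34 and 18.58 CPM, a ratio of 1.013. A higher Gzma level in CD4 T cells was thus not shown. Gzmb under the stricter gate counted 35 and 184 UMIs, a ratio of 2.867. It was found there in 15 of 67 PBS cells and 19 of 122 cmExoaCD11b cells, a share that was not higher in cmExoaCD11b. A higher Gzmb level across CD4 T cells was thus not shown either.

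Among the other members in CD4 T cells, Ctsw was lower at 415.4 against 248.3 CPM, a ratio of 0.5977 (0.5075 to 0.704), and was found in 71.74% and 51.23% of cells. Serpinb9 had 56.14 and 95.37 CPM, a ratio of 1.699 (1.177 to 2.499). Nkg7 had 492.6 and 582.9 CPM, a ratio of 1.183 (1.04 to 1.349). Intervals for Gzmk, at 0.8421, and Serpinb6b, at 0.849, included 1. Prf1 had 8 and 20 UMIs and Gzmc 0 and 1, too few to compare. None of the members passed 2-fold lower, against 1.17% of genes. With a 1.5-fold limit Serpinb9 joined Gzma and Gzmb as higher, against 10.1% of genes, and Ctsw was lower, against 5.14%. Their median ratio was 1.183 against 1.052 over all genes.

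In T cells with neither a Cd4 nor a Cd8 UMI, which can hold cells of either lineage whose transcript was missed, 2 of 7 counted members passed 2-fold higher, against 3.6% of 4281 genes, and 0 passed 2-fold lower, against 1.24%. Gzma counted 56 and 671 UMIs, at 146.4 and 720.9 CPM, a ratio of 4.923 (3.745 to 6.587), although 1 PBS cell held 41 of the 56. It was found in 5.941% of PBS and 18.25% of cmExoaCD11b cells. Gzmk counted 12 and 69 UMIs, a ratio of 2.362 (1.27 to 4.792). Gzmb had a ratio of 1.377 (1.105 to 1.73), Nkg7 1.37 (1.164 to 1.619) and Ctsw 0.7796 (0.6263 to 0.9743). Serpinb9 at 1.261 and Serpinb6b at 0.8987 had intervals that included 1. Gzmc counted 12 UMIs, all in 1 PBS cell, against 1, and Prf1 counted 7 against 37.

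In NK cells none of the 7 counted members passed 2-fold in either direction, against 8.32% of 1815 genes higher and 1.43% lower. With a 1.5-fold limit Gzmb was higher, against 20.9% of genes, and Ctsw lower, against 8.37%. Gzma counted 705 UMIs in 28 PBS cells and 2484 in 104 cmExoaCD11b cells, a ratio of 0.8421 (0.7742 to 0.9168), and was found in 78.57% and 76.92% of them. Gzmb counted 57 and 429 UMIs, a ratio of 1.799 (1.362 to 2.415). The share of cells with Gzmb did not differ in that direction, at 75% (21 of 28 cells) and 53.85% (56 of 104 cells), or 46.15% and 44.44% at equal depth. Positive cells held a median of 2 Gzmb UMIs in PBS and 5 in cmExoaCD11b, and the highest held 7 and 41. NK cells of cmExoaCD11b were deeper, with a median of 3410 against 2520 UMIs, and the part of depth in this was not tested.

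Ctsw was lower in NK cells as well, at 617.1 and 345.9 CPM, a ratio of 0.5605 (0.4058 to 0.7833). Prf1 at 0.8839, Nkg7 at 1.053, Serpinb9 at 1.324 and Serpinb6b at 1.18 had intervals that included 1. Serpinb6b was found in 9 of 28 PBS cells, 32.14%, and 59 of 104 cmExoaCD11b cells, 56.73%, yet 1 PBS cell held 18 of its 33 UMIs. Without the cell with most Serpinb6b UMIs in each library its ratio was 2.196. Gzmc was at 4 UMIs in 1 PBS cell and 0 UMIs in 104 cmExoaCD11b cells. The gate limited UMIs of other classes' markers. Without those limits it held 38 PBS and 112 cmExoaCD11b cells, neutrophil transcripts were at 19706 and 12299 CPM in place of 3029 and 3113 CPM, and 6 members passed 2-fold higher, Gzma among them at 2.667. The UMIs of the gate went from 89132 to 502801 in PBS and from 372949 to 580294 in cmExoaCD11b. Those of Gzma went from 705 to 822 and from 2484 to 2530. A share over all genes is not given for this setting, so the count is not read as a result about the members.

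Ctsw was thus the member that was lower in cmExoaCD11b in all 4 T and NK gates, with each interval below 1. Genes of the T cell receptor and its coreceptor were partly lower too, and their part in the result was not tested. In CD8 T cells without the PBS cell described above Ctsw was at 0.7381, Trbc2 at 0.7463 (0.6899 to 0.8075), Cd8a at 0.7857 and Trac at 0.8489, while Cd8b1 was at 0.9833 and Trbc1 at 1.433. In CD4 T cells the thinned shares of Ctsw, 34.78% (26.88 to 43.35) and 23.55% (18.35 to 29.41), had intervals that overlap. Its thinned share went the other way in T cells without Cd4 or Cd8, at 17.53% and 20.08%, so no order is read from it there. Over the alternatives of processing its ratio ranged from 0.6095 to 1.018 in CD8 T cells, from 0.414 to 0.7373 in CD4 T cells and from 0.476 to 1.67 in NK cells. The value above 1 in CD8 T cells came when cells were called by UMI rank alone, which kept 50 PBS and 48 cmExoaCD11b cells, and that in NK cells when limits on other markers were dropped.

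**Figure D4:**
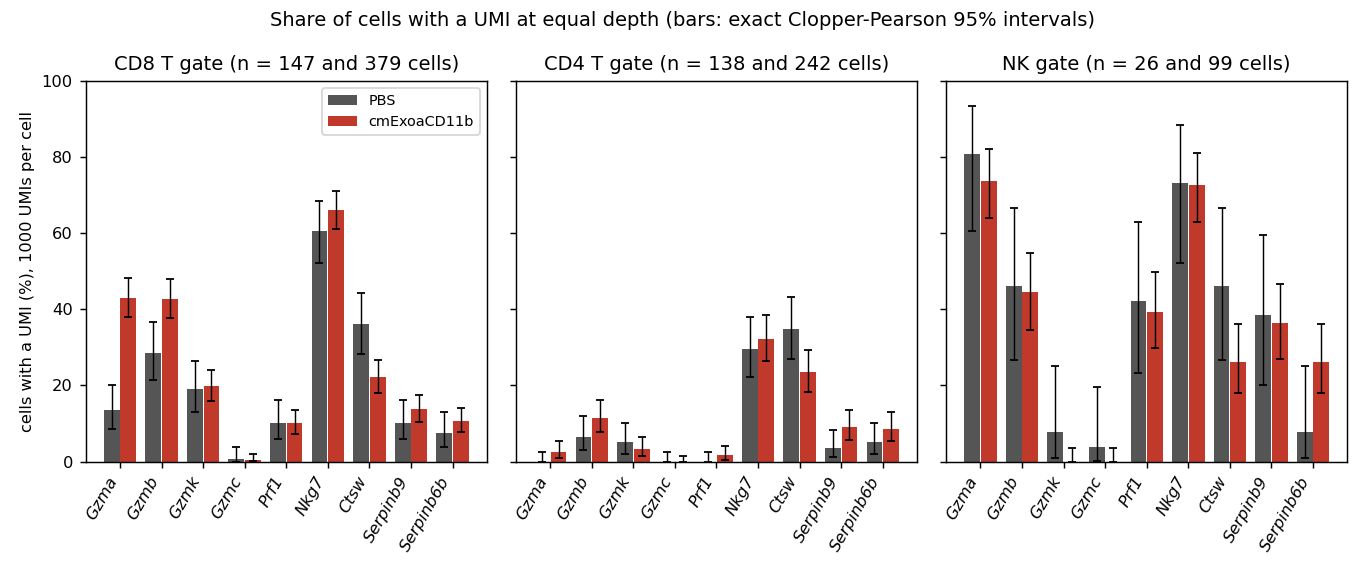
Share of cells with at least 1 UMI of each member after thinning every cell to 1000 UMIs, in the CD8 T, CD4 T and NK gates, with grey bars for PBS, red bars for cmExoaCD11b and exact Clopper-Pearson 95% intervals. In CD8 T cells Gzma goes from 13.61% to 43.01% and Ctsw from 36.05% to 22.16%. In NK cells the intervals of the libraries overlap for all 9 genes.

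Many CD8 T and NK cells carried several members, although not every pair was found together more often than its single shares. At 1000 UMIs per cell, 6.122% of PBS and 6.86% of cmExoaCD11b CD8 T cells carried at least 5 members, 25.17% and 39.31% carried 3 or 4, and 19.73% and 13.46% carried none. Among NK cells 30.77% and 27.27% carried at least 5. Most cells of the CD4 T gate carried at most 2, and 97.18% of PBS and 96.18% of cmExoaCD11b neutrophils carried none.

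In CD8 T cells of PBS, 12 of 20 Gzma-positive cells were also positive for Gzmb, 60%, and these were 28.57% of the 42 Gzmb-positive cells. In cmExoaCD11b 106 cells carried both, 65.03% of the 163 with Gzma and 65.43% of the 162 with Gzmb. Gzmk and Gzma were found together in 6 of 28 Gzmk-positive PBS cells, 21.43%, and in 45 of 75 in cmExoaCD11b, 60%. Of Prf1-positive cells, 5 of 15 in PBS and 17 of 38 in cmExoaCD11b carried Gzma, 33.33% and 44.74%. Of Ctsw-positive cells, 6 of 53 and 28 of 84 carried Gzma, 11.32% and 33.33%, below the Gzma share of all CD8 T cells in both libraries. Over all CD8 T cells the Gzma share was itself 13.61% and 43.01% at this depth, and no pair count was tested against it. In NK cells 11 of 11 Prf1-positive cells of PBS and 34 of 39 of cmExoaCD11b carried Gzma. Over all NK cells the Gzma share was itself 80.77% and 73.74% at this depth, and the pair was not tested against it.

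Nkg7 was the one member with many UMIs outside lymphocytes. Neutrophils, the most numerous class, held 2367 of the 5880 Nkg7 UMIs of all kept PBS cells, 40.26%, and 3992 of 11757 in cmExoaCD11b, 33.95%. The UMIs were concentrated. A UMI was found in 7.46% and 11.7% of neutrophils, and these cells held 8.484 and 8.567 UMIs on average and up to 113 and 148. Free RNA would give 2.914 and 5.073 CPM, against the 82.21 and 99.85 CPM measured.

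Most of these UMIs lay in cells rich in Mpo. Mpo, the myeloperoxidase that neutrophil precursors store in their first granules, is no gate marker and was used to split the gate after Nkg7 had been seen there. Cells with 0 Mpo UMIs had 8.375 CPM of Nkg7 in PBS and 12.37 CPM in cmExoaCD11b. Cells with 1 to 9 Mpo UMIs had 71.43 and 50.81 CPM, and those with 10 to 99 had 271.8 and 255.3 CPM. The 40 PBS and 66 cmExoaCD11b cells with at least 100 had 999.8 and 851 CPM, all of them carried Nkg7, and they held 68.86% and 68.79% of the Nkg7 UMIs of the gate. Elane, the neutrophil elastase gene, was at 15324 and 13560 CPM in these cells against 29.2 and 40.22 CPM in cells without Mpo, and Cst7, which encodes an inhibitor of granule cathepsins, at 345.9 and 260.6 CPM against 1.606 and 1.892 CPM.

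The other 8 members did not follow. They summed to 1.84 and 2.789 CPM in cells with at least 100 Mpo UMIs and to 2.951 and 8.444 CPM in cells with none. T cell markers had a UMI in 1 of the 40 PBS and 9 of the 66 cmExoaCD11b cells. Over the whole gate the Nkg7 ratio was 1.215 (1.154 to 1.279), where the median ratio over all genes was 1.091. By the number of Mpo UMIs per cell it was 1.477 (1.236 to 1.769) at 0 UMIs, 0.7113 (0.5935 to 0.8539) at 1 to 9, 0.9394 (0.8207 to 1.077) at 10 to 99 and 0.8512 (0.8003 to 0.9055) at 100 or more. Median depth also differed, at 40656 and 46424 UMIs in the cells with at least 100 Mpo UMIs against 3646 and 4585 in those with 0. It was 4829 in PBS and 11473 in cmExoaCD11b at 1 to 9 Mpo UMIs, so equal counts there do not mean equal Mpo levels. The part of depth in these ratios was not tested.

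**Figure D5:**
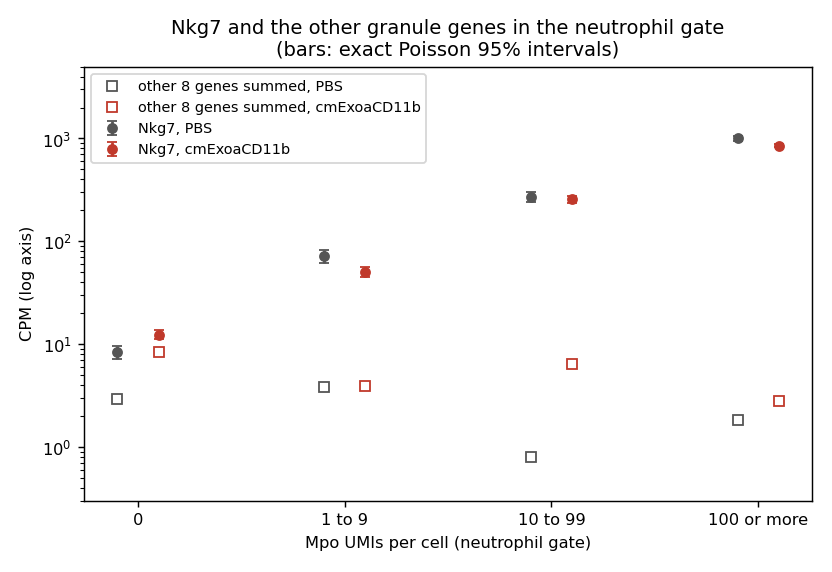
Level of Nkg7 (filled circles, exact Poisson 95% intervals) and of the other 8 granule genes summed (open squares) in cells of the neutrophil gate, by the number of Mpo UMIs per cell, in CPM on a log axis, with grey for PBS and red for cmExoaCD11b. Nkg7 goes from 8.375 and 12.37 CPM in cells without Mpo to 999.8 and 851 CPM in cells with at least 100 Mpo UMIs, while the other genes stay below 10 CPM.

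The inhibitors were also found in classes with few or no granzyme UMIs. Serpinb6b was at 156.7 CPM in the 21 epithelial cells of PBS and 104.5 CPM in the 26 of cmExoaCD11b, a ratio of 0.6672 (0.4425 to 0.9973), and Serpinb9 at 51.41 and 70.5 CPM, a ratio of 1.371 (0.7554 to 2.53). Gzmb, Gzmk, Gzmc, Prf1 and Nkg7 were at 0 UMIs in these cells in both libraries. Dendritic cells held 18 and 39 UMIs of Serpinb6b and 8 and 23 of Serpinb9. In cmExoaCD11b 1 dendritic cell held 28 of the 39 Serpinb6b UMIs and 1 held 15 of the 23 Serpinb9 UMIs. Serpinb6b was found in 32% and 10.14% of dendritic cells and Serpinb9 in 32% and 11.59%. Cells outside all gates made up 31.24% of PBS and 22.65% of cmExoaCD11b cells. They held 39% (35.21 to 42.9) and 21.92% (19.24 to 24.79) of the Serpinb6b UMIs. Of the Serpinb9 UMIs they held 36.44% (32.18 to 40.85) and 19.98% (17.66 to 22.47). In PBS both intervals lay above the share of the cells. In cmExoaCD11b that of Serpinb6b included it and that of Serpinb9 lay just below it. For Gzma the shares of UMIs outside all gates were 13.65% and 7.854%. In the remaining classes the members were sparse. In macrophages and monocytes and in plasma cells every member stood at 12.73 CPM or less. Nkg7 counted 4 UMIs in 2 mast cells and basophils of PBS and 32 UMIs in 7 of cmExoaCD11b, 5 of which carried it. The 6 and 2 fibroblasts held no UMIs of the granzymes, Prf1, Nkg7 or Ctsw, and at most 4 of either serpin.

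Of 38 other genes of the granule pathway, from a list chosen by function, 31 had at least 50 UMIs in CD8 T cells, with 2 past 2-fold higher and 1 lower. Over all genes counted 4.51% were higher and 3.31% lower, so these counts are close to the background. Tbx21, the T-box factor that drives granzyme and perforin genes, was at 196.6 and 459.7 CPM, a ratio of 2.338 (1.996 to 2.751). It was found in 58.39% of PBS and 57.73% of cmExoaCD11b cells, without thinning to equal depth. Gzmm, a further granzyme, counted 8 and 42 UMIs, a ratio of 3.053 (1.416 to 7.53). The lower one was Gzmf, with 74 and 0 UMIs, 72 of them in the PBS cell described above. Other regulators came close to 2-fold, with Zeb2 at 1.994 (1.763 to 2.261), Eomes at 1.953 (1.375 to 2.826) and Stat4, the factor that carries IL-12 signals, at 1.899 (1.654 to 2.186). With a 1.5-fold limit 6 of the 31 pathway genes were higher and 5 lower, against 17.7% and 12.7% of all genes, counts again close to the background. The 8 genes of granule movement and release were mixed, with 5 above a ratio of 1 and 3 below. The interval lay above 1 for Rab27a, a GTPase of granule docking, at 1.349 (1.104 to 1.655), and below 1 for Vamp8, a fusion protein, at 0.5398 (0.435 to 0.6697) and Stxbp2, a syntaxin-binding protein, at 0.5816 (0.3741 to 0.9041). Ifng had a ratio of 1.129 (1.019 to 1.252).

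In CD4 T cells 28 of the 38 were counted, with 1 higher, Stxbp2 at 2.002 (1.032 to 4.184), and 1 lower, the cathepsin gene Ctsl at 0.1729 (0.09615 to 0.2964), where 2.64% and 1.17% of all genes were called. In NK cells 19 were counted, with 0 higher and 1 lower, Serpinb9b at 0.1978 (0.1102 to 0.3518), where 8.32% and 1.43% of all genes were called. In T cells without Cd4 or Cd8 25 were counted, with 1 higher, Tbx21 at 2.739 (2.017 to 3.792), and 0 lower. Over all genes counted in that gate 3.6% were higher and 1.24% lower, so these counts are close to the background. The IL-12 receptor gene Il12rb2 had ratios of 1.932 (1.261 to 3.088) in NK cells, 1.427 (1.149 to 1.781) in CD8 T cells and 0.6133 (0.5007 to 0.7514) in CD4 T cells. The median ratio of the counted pathway genes was 1.191 in CD8 T cells, 0.964 in CD4 T cells and 1.268 in NK cells, against 1.057, 1.052 and 1.067 over all genes.

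Genes with the pattern most like each member were named by Pearson's correlation of log2(CPM + 10) over 12 points, 6 classes with at least 50 cells in each of the 2 libraries, among 12640 genes. The points share libraries and the contrast between lymphoid and other classes, so high values are common and are given as a description. Gzma was most like Klrc2 (0.977) and Gzmb (0.967), Gzmb most like Klrc1 (0.987) and Serpinb9 (0.986), and Gzmk most like Klrc1 (0.974). Ctsw was most like the T cell genes Cd96 (0.998), Trbc2 (0.998) and Thy1 (0.997), and Nkg7 most like Spn (0.980). Gzmc was most like Gsta4 (0.982) and Gzmf (0.945), and Prf1 most like Wdr95 (0.979). The PBS cell described above held 92 of the 97 Gzmc and 72 of the 74 Gzmf UMIs of the PBS CD8 T gate. The likeness of Gzmc was not computed without that cell. Serpinb9 was most like Txk (0.993) and Serpinb6b most like Ms4a4b (0.990). NK cells, with fewer than 50 PBS cells, were not among these classes.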

How the data were processed

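The material was 2 single-cell libraries from tumors, PBS and cmExoaCD11b, every one from 3 mice. For each, the authors deposited the unfiltered table of UMI counts, with no normalization, from Cell Ranger. The headers name its version as 7.1.0, the methods of the study as 3.0.2, and a genome build is not given in the sources used here. Totals were 67143628 UMIs for PBS and 81288480 for cmExoaCD11b.

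Barcodes were called as cells by UMI rank (the 99th percentile of the top 3000, divided by 10) or, with at least 500 UMIs, by a multinomial test against empty droplets (10000 simulations, false discovery rate 0.01). Of these, cells under 200 genes or above 20% mitochondrial UMIs were dropped. Scrublet's threshold marked 0 cells, so 421 and 453 cells with the highest scores, the expected share of doublets, were removed. Gates needed at least 1 Cd3 UMI with 1 Cd8 or Cd4 UMI and none of the other lineage, at least 2 Cd3 UMIs without either, or at least 2 UMIs of Klrb1c, Ncr1, Klre1, Klra4 and Klra8 without Cd3, with limits on other classes' markers. Counts were summed per class. A ratio was called at 2-fold or 0.5-fold with at least 50 UMIs. No test between treatments was run. The interval method was tested on simulated data. Python 3.11.15, numpy 2.4.6, scipy 1.17.1 and scanpy 1.11.5 were used. The rule for named genes took all 9 members and the pathway genes past 2-fold in CD8 T, CD4 T or NK cells. Others of that list were named after their values were seen. The members and lists were chosen with earlier results of these data known. Leaving out single cells (1 or 2) and the split by Mpo were chosen after seeing the data. An allele of the mice that gave K210 cells and a further split of CD8 T cells are not reported here.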

Additional observations from a re-analysis of the deposited data

Results flagged for a closer look

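Gzma was picked out because its ratio of cmExoaCD11b to PBS lay on opposite sides of 1 in different classes, with intervals for counting error that exclude 1. It was 3.95 in CD8 T cells, 13.99 in CD4 T cells, 4.923 in T cells without a Cd4 or Cd8 UMI and 6.122 in neutrophils, and 0.8421 in NK cells. The difference between classes was not tested, since each treatment has 1 library. The value in CD4 T cells was 1.013 under a stricter gate, the level in neutrophils lay below that of free RNA, and the value in NK cells was 2.667 without limits on other classes' markers.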

How the results depend on the processing

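Members past 2-fold numbered 3 in CD8 T cells, 2 in CD4 T cells and 0 in NK cells. In CD8 T cells the count ranged from 2 to 4 over all alternatives. In CD4 T cells it was 1 (Gzmb) under a stricter gate and in cells thinned to 1000 UMIs, and 4 with a 1.5-fold call. In NK cells it was 6 without limits on other classes' markers, 2 with a 1.5-fold call, 2 without a minimum of UMIs (Gzmk and Gzmc, lower) and 1 without the cell with the most UMIs of the member (Serpinb6b). The count of 6 is given without a share over all genes and is not read as a result about the members. Leaving out cells was an alternative chosen after seeing the data, and where a count moved for another reason than fewer cells, genes or a lower limit, the cause was not tested. The Gzmc ratio in CD8 T cells turned from 0.07195 to 1.551 in thinned cells and to 1.335 without 1 PBS cell, which held 92 of 97 UMIs. After thinning only 1 PBS and 2 cmExoaCD11b cells carried Gzmc, so no higher level is read from 1.551. Of 255 ratios under alternatives 190 stayed within the counting interval of the main value, 63 moved outside it and 2 reversed. Calling cells by UMI rank alone moved 15 of 24 ratios and left 3 PBS NK cells. Of 324 shares 235 stayed within the interval, and thinning moved 42 of 54. No paired analysis was possible because PBS and cmExoaCD11b came from separate animals and each has 1 library. With 1 library per treatment, differences between mice, pools and treatments cannot be told apart.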
